A study of Mus musculus with 4 samples.

Results

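Sox17, Sox18, Sox7, Erg, Fli1, Foxf1, Tal1, Gata2, Tbx2 and Tbx3, 10 transcription factors known from the endothelial lineage, were followed across the vessels of hypoxic mouse lung. They were taken by name from the 31253 genes counted, and 10 of 10 were found. Aerocytes, the large capillary cells of the gas exchange surface, stood apart from the other blood vessels for 6 of them, Tbx2, Tbx3, Sox17, Sox7, Erg and Fli1, with no overlap between libraries. The share of all genes that set aerocytes apart in this way was not counted. A cluster led by the aerocyte genes Ednrb, Apln and Fibin was left unnamed, with Sox17 at 169 CPM and Erg at 148 CPM. Venous cells had mean levels of 161 CPM for Sox17 and 124 CPM for Erg. Counting the cluster as aerocytes narrowed these differences, and whether each factor then still stood apart without overlap was not examined. CPM is the gene's counts as a share of all counts of the cells, scaled alike everywhere. In the named aerocytes Tbx2 averaged 767 CPM, against under 16 CPM in each other vessel type. Tbx3 was 4.77-fold higher in the named aerocytes than in the next type, and Sox17, Sox7, Erg and Fli1 were lowest in them. Between genotypes, 0 factors passed the test in any vessel type, where 0% to 0.0103% of all genes did. In arterial and lymphatic cells 9 of the 10 were tested, and Tbx3 in lymphatic cells was called under 3 alternative settings.

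Single-cell RNA was counted in 4 libraries of dissociated lung, each pooling 2 mice (8 mice in all). The mice had a C57BL/6J background, were 6-8 weeks old and had been exposed to hypoxia for 6 weeks. WT mice gave 2 libraries and Vegfr2Y949F mice, named for a tyrosine-to-phenylalanine change in the VEGF receptor 2, gave the other 2. All groups were hypoxic, so nothing here compares hypoxia with normal air, and the labels name each library also by a set, A or B, without saying what a set shares. The libraries hold pools, so the spread between mice within a library was not measured.

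After filtering, 10783, 9715, 11446 and 9304 cells remained in WT A, WT B, Vegfr2Y949F A and Vegfr2Y949F B, the order used for values throughout. Their median depth was 4339, 5472, 4312 and 5549 UMIs (unique molecular identifiers, counted transcripts) per cell, and pairs of libraries shared 23 to 42 barcodes. Of 41248 cells, 20723 were assigned to vessels by marker genes that did not include the 10 factors. They comprised 16078 general capillary cells, 1817 aerocytes, 564 arterial, 1949 venous and 315 lymphatic cells, each name standing for cells that are like that type by its markers. Of the aerocyte markers, 9 of 9 (among them Car4, Ednrb and Apln) were highest in aerocytes; 11 of 12 arterial markers (Gja5, Bmx), 9 of 10 venous markers (Vwf, Slc6a2) and 6 of 7 lymphatic markers (Mmrn1, Prox1) were highest in their own type. For general capillary cells it was 5 of 9 (Gpihbp1, Kit, Cd93, Aplnr, Sema3c): Plvap was highest in venous cells, and Cxcl12, Cemip2 and Ptprb in arterial cells. Lymphatic cells were few, 22 in WT A and 27 in Vegfr2Y949F A against 161 and 105 in the set B libraries.

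Sox17, Sox18 and Sox7 are the SoxF proteins, which bind DNA through a high-mobility-group box and act together in vessel growth, with Sox17 best known for arterial identity. Erg and Fli1 are ETS proteins that keep endothelial genes active and are present in nearly all endothelium. Foxf1 is a forkhead factor needed for lung vessels, Tal1 and Gata2 act early in blood and endothelial cells, and Tbx2 and Tbx3 are paralogous T-box factors that mostly repress their targets.

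Because families can share reads, the coding stretches in which the paralogs are most alike were compared (75 bases each, GENCODE, mouse). Capitals mark bases that differ from the family's first member. Sox18 matched Sox17 at 68 bases and Sox7 matched it at 65:
Sox17: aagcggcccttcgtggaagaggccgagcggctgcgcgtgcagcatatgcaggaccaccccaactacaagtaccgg
Sox18: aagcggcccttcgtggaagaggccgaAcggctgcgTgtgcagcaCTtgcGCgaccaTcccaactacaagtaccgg
Sox7: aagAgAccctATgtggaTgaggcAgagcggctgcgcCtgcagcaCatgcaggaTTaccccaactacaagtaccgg

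In the ETS pair, Fli1 matched Erg at 69 of the 75 bases:
Erg: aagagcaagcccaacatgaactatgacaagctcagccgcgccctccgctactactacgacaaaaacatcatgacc
Fli1: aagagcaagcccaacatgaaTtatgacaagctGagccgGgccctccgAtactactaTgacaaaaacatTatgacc

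In the T-box pair, Tbx3 matched Tbx2 at 65 of the 75 bases:
Tbx2: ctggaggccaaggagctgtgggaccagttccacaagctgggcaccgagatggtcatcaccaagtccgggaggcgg
Tbx3: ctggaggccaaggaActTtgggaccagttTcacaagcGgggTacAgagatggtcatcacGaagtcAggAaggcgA

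Over whole transcripts the longest run shared exactly was 29 bases for Sox17 and Sox18, 22 for Sox17 and Sox7, 20 for Sox18 and Sox7, 22 for Erg and Fli1 and 14 for Tbx2 and Tbx3. No stretch longer than 29 bases was therefore the same in any of these pairs, although the stretches shown are 86.7% to 92% identical to the first member. Sox17 (chromosome 1, 4490931 to 4497354), Tbx3 (chromosome 5, 119670669 to 119684724), Fli1 (chromosome 9, 32422204 to 32542861) and Foxf1 (chromosome 8, 121084386 to 121088144, all GRCm38) overlap other annotated genes. Whether counting used the strand is not given in the sources used here, so reads of the overlapping genes could add to or be lost from these 4.

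The 5 vessel types were compared first by the summed UMIs of each factor relative to all UMIs of the type (CPM), in each library. Since the types are clusters of the same cells, these levels are a description, without a test. Sox17 was detected at 279, 280, 309 and 267 CPM in arterial cells. General capillary cells had 265, 289, 242 and 272 CPM, a range that overlapped the arterial one. Venous cells had 194, 151, 133 and 167 CPM, below every general capillary value, the mean being 1.65-fold lower. Aerocytes had 39.8, 40.9, 32.3 and 25.5 CPM of Sox17, and every aerocyte value lay below every arterial, general capillary and venous one. Lymphatic cells, at 29.3, 43.9, 90.9 and 66.4 CPM, overlapped the aerocytes.

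The share of cells with a Sox17 UMI gave the same order, after each cell was thinned to 2000 UMIs (44 to 82 aerocytes and 59 to 256 general capillary cells per library were shallower and left out). It was 38.7% ± 3.58 (SD, n = 4) in arterial cells, 37.9% ± 2.08 in general capillary cells, 24.7% in venous cells and 6.18% ± 0.82 in aerocytes. Alveolar type 1 cells, which should lack Sox17, had 1.57% ± 0.91, neutrophils 1.34% ± 0.85 and alveolar macrophages 2.72% ± 1.96, all below the aerocyte mean. The B cells were planned as a further background, but their cluster held 13, 159, 64 and 89 cells and 0%, 0%, 14.3% and 5.71% of its thinned cells had a Sox17 UMI. Beside the latter 2 values, whether the low aerocyte share of Sox17 exceeds background was not settled. Without thinning the shares were 13.9% in aerocytes and 3.59% in alveolar type 1 cells, at median depths of 4481 to 5880 and 3097 to 8013 UMIs. The aerocyte level of Sox17 depended on how that type was bounded. A cluster of 1680 cells led by Ednrb, Apln and Fibin carried 3.16 times the median UMIs of its libraries' cells. This was beyond the limit of 2 set for endothelial clusters, so it was left unnamed. It also expressed the capillary gene Kit, at 159 CPM against 17.4 CPM in aerocytes and 138 CPM in venous cells. Its Sox17 level was 169 ± 9.37 CPM (SD, n = 4).

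Sox18 was more even. Arterial cells, with 363, 369, 386 and 350 CPM, lay above every venous value (275, 311, 278 and 243 CPM), 1.33-fold in the mean. Venous cells, general capillary cells (279, 264, 265 and 252 CPM) and aerocytes (242, 280, 233 and 272 CPM) overlapped each other. Lymphatic cells had 107, 82.4, 81.8 and 71.5 CPM, below all blood vessel values and 2.99-fold below aerocytes. Thus Sox18 was lowest in lymphatic cells, whereas Sox17 was low in both lymphatic cells and aerocytes.

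Sox7 was highest in general capillary cells (215, 218, 248 and 259 CPM) and venous cells (218, 245, 243 and 227 CPM), which overlapped. Arterial cells followed at 195, 179, 215 and 187 CPM, each below the lowest venous value. Aerocytes had 138, 108, 129 and 117 CPM, overlapping the lymphatic values of 87.9, 164, 145 and 157 CPM. In arterial cells Sox7 was thus 1.20-fold below venous cells, the opposite order to Sox18.

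Cell by cell, the SoxF genes were detected together in a minority of vessel cells after thinning, a share that depends on depth. In general capillary cells a Sox17 UMI was seen in a mean of 65.4% of cells without thinning and 37.9% after it. A cell without a UMI can therefore still express the gene, and how many cells express the genes together was not measured. After thinning, 24.8% to 26.6% of general capillary cells per library had no UMI of any SoxF gene and 4.90% to 5.46% had a UMI of all 3. In aerocytes, 43.3% to 45.7% had none and 0.21% to 0.61% all 3. Sox18 was seen in 36.8% to 41.4% of the general capillary cells with a Sox17 UMI and in 35.0% to 40.0% of those without. The ranges overlapped, but within a library the share was higher in general capillary cells with a Sox17 UMI in 4 of 4. In aerocytes it was higher only in Vegfr2Y949F A (42.9% against 38.3%). It was lower in arterial cells of WT B (47.2% against 52.4%) and venous cells of Vegfr2Y949F A (25.3% against 37.7%), and higher in the other arterial and venous libraries.

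**Figure D1:**
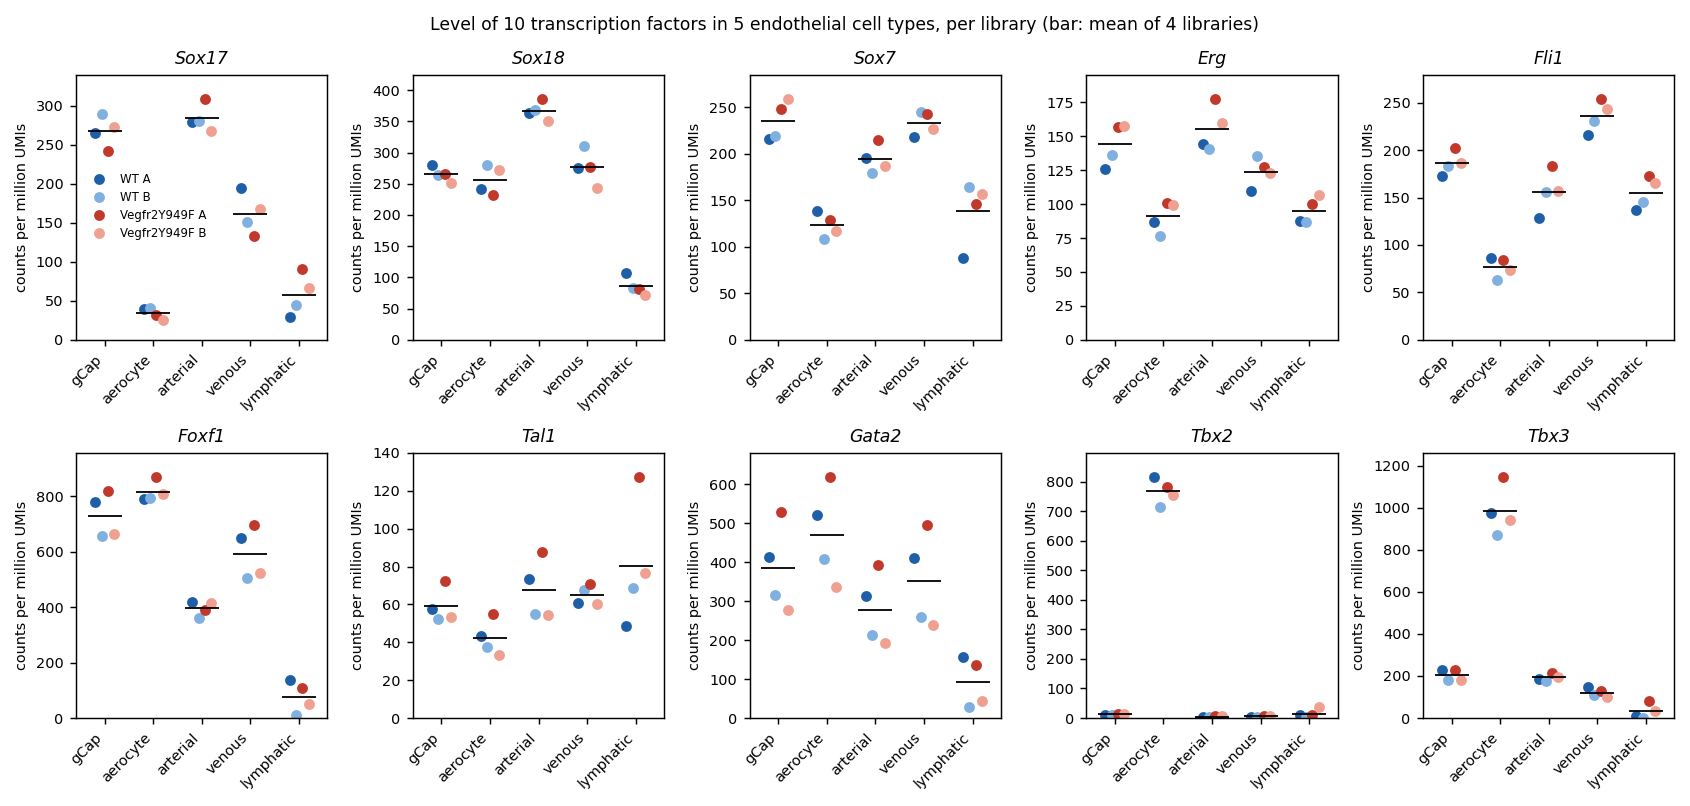
Level of each of the 10 factors (CPM, linear axis from 0) in general capillary, aerocyte, arterial, venous and lymphatic cells. Points are the 4 libraries and bars the mean of the 4. Tbx2 (767 CPM) and Tbx3 (983 CPM) peak in aerocytes, where Sox17 (34.6 CPM) and Fli1 (76.8 CPM) are lowest.

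The ETS factors differed in which vessel led. Erg was detected at 144, 140, 178 and 160 CPM in arterial cells and at 126, 136, 157 and 158 CPM in general capillary cells; the ranges overlapped, but arterial cells were higher in 4 of 4 libraries. Venous cells had 110, 135, 128 and 123 CPM of Erg, lymphatic cells 87.9, 86.7, 100 and 107 CPM, and aerocytes 87.0, 76.7, 101 and 99.1 CPM. Lymphatic and aerocyte values overlapped, and both lay below every venous value. An endothelial cluster of 2188 cells with few UMIs, left unnamed for its low marker score, had 139, 200, 186 and 235 CPM of Erg. Its mean of 190 CPM was above the arterial mean of 156 CPM, so arterial cells led only among the named types. Fli1 instead was highest in venous cells, at 216, 231, 254 and 244 CPM, above every general capillary value (173, 184, 202 and 187 CPM) and 1.27-fold in the mean. Arterial cells (129, 156, 184 and 157 CPM) and lymphatic cells (137, 146, 173 and 165 CPM) overlapped. Aerocytes had 86.3, 63.2, 84.1 and 73.6 CPM of Fli1, below every value of the other vessels and 2.02-fold below lymphatic cells.

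Foxf1 followed a gradient from the capillary bed to arteries. Aerocytes had 790, 793, 869 and 809 CPM and general capillary cells 778, 656, 819 and 664 CPM, overlapping between libraries but higher in aerocytes in 4 of 4. Venous cells had 648, 505, 695 and 521 CPM. Arterial cells, at 418, 361, 390 and 414 CPM, lay below every value of these. Lymphatic cells had 137, 10.7, 109 and 48.9 CPM of Foxf1, 5.18-fold below arterial cells in the mean. Within lymphatic cells the sum of 9 general capillary markers was 2158, 1215, 3837 and 1628 CPM, against 8368 to 11041 CPM in general capillary cells, and its part in the lymphatic Foxf1 values was not tested.

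Gata2 had the same order in each library, aerocytes above general capillary, venous and then arterial cells. Its values were 520, 409, 618 and 335 CPM in aerocytes, 413, 316, 529 and 276 CPM in general capillary cells, 411, 259, 495 and 239 CPM in venous cells and 312, 213, 393 and 193 CPM in arterial cells. All these ranges overlapped, because the libraries themselves differed more than neighbouring types did: both set A libraries were above both set B libraries in each type. Lymphatic cells had 156, 27.8, 136 and 43.9 CPM.

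Tal1, a basic helix-loop-helix factor that works in complexes with Gata2, was lowest in aerocytes. It was found at 57.8, 52.5, 72.3 and 53.2 CPM in general capillary cells and 43.5, 37.7, 54.8 and 33.2 CPM in aerocytes, lower in aerocytes in 4 of 4 libraries although the ranges overlapped. Arterial cells had 73.2, 55.1, 87.5 and 54.4 CPM and venous cells 60.7, 67.4, 70.9 and 60.1 CPM. Every aerocyte value of Tal1 lay below every venous one, and arterial cells overlapped aerocytes by their lowest values. Lymphatic cells had 48.8, 68.5, 127 and 76.5 CPM, overlapping the range of each blood vessel type.

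Tbx2 was the factor most unlike the rest. Aerocytes had 815, 714, 781 and 756 CPM, and 75.1% ± 3.15 of them (SD, n = 4) had a Tbx2 UMI after thinning. General capillary cells had 11.3, 9.67, 14.8 and 15.1 CPM and 2.13% ± 0.34 of cells, close to the 1.29% of neutrophils. Venous cells had 3.81, 4.71, 7.02 and 5.77 CPM. Arterial cells had 3, 3, 11 and 6 Tbx2 UMIs in all, and alveolar type 1 cells 0.991 to 5.04 CPM, so venous and arterial levels could not be separated from free RNA at this depth. Lymphatic cells had 9.76, 3.21, 9.09 and 37.6 CPM, and the aerocyte mean was 51.4-fold above theirs.

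Tbx3, its paralog, was also highest in aerocytes but was present in the other blood vessels. It was detected at 978, 869, 1147 and 941 CPM in aerocytes and 230, 181, 231 and 182 CPM in general capillary cells. Arterial cells, with 186, 178, 216 and 194 CPM, overlapped general capillary cells and lay above every venous value (147, 110, 127 and 101 CPM). Of cells thinned to 2000 UMIs, 82.4% ± 2.84 of aerocytes, 32.4% ± 3.79 of general capillary cells and 1.06% of alveolar type 1 cells had a Tbx3 UMI (SD, n = 4). In the unnamed cluster led by Ednrb, Apln and Fibin, Tbx2 was 292 ± 30.8 CPM and Tbx3 460 ± 31.1 CPM, between aerocytes and general capillary cells.

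Outside vessels, Tbx2, Foxf1 and Fli1 were also found at high levels in other lung cells. In alveolar type 1 cells each of the 10 factors averaged 1.72 to 21.7 CPM. Tbx2 was highest of all 18 types with at least 20 cells per library in pericytes, the mural cells of capillaries, at 1141 ± 88.4 CPM (SD, n = 4), with 313 ± 88.0 CPM in smooth muscle and 233 ± 34.7 CPM in alveolar fibroblasts. Foxf1 reached 290 ± 31.9 CPM in pericytes, 164 CPM in myofibroblasts and 113 CPM in smooth muscle. Fli1 was found in leukocytes, at 98.2 ± 12.0 CPM in T cells and 81.6 ± 14.7 CPM in classical monocytes, and at 76.9 ± 19.4 CPM in pericytes. Sox17, Sox18, Sox7 and Erg in pericytes were at 5.45 to 8.16 CPM, the level of alveolar type 1 cells. A small group with megakaryocyte and platelet markers carried Sox17 at 261 CPM and Foxf1 at 714 CPM, levels of capillary cells, and whether endothelial RNA or cells are in it was not tested.

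**Figure D2:**
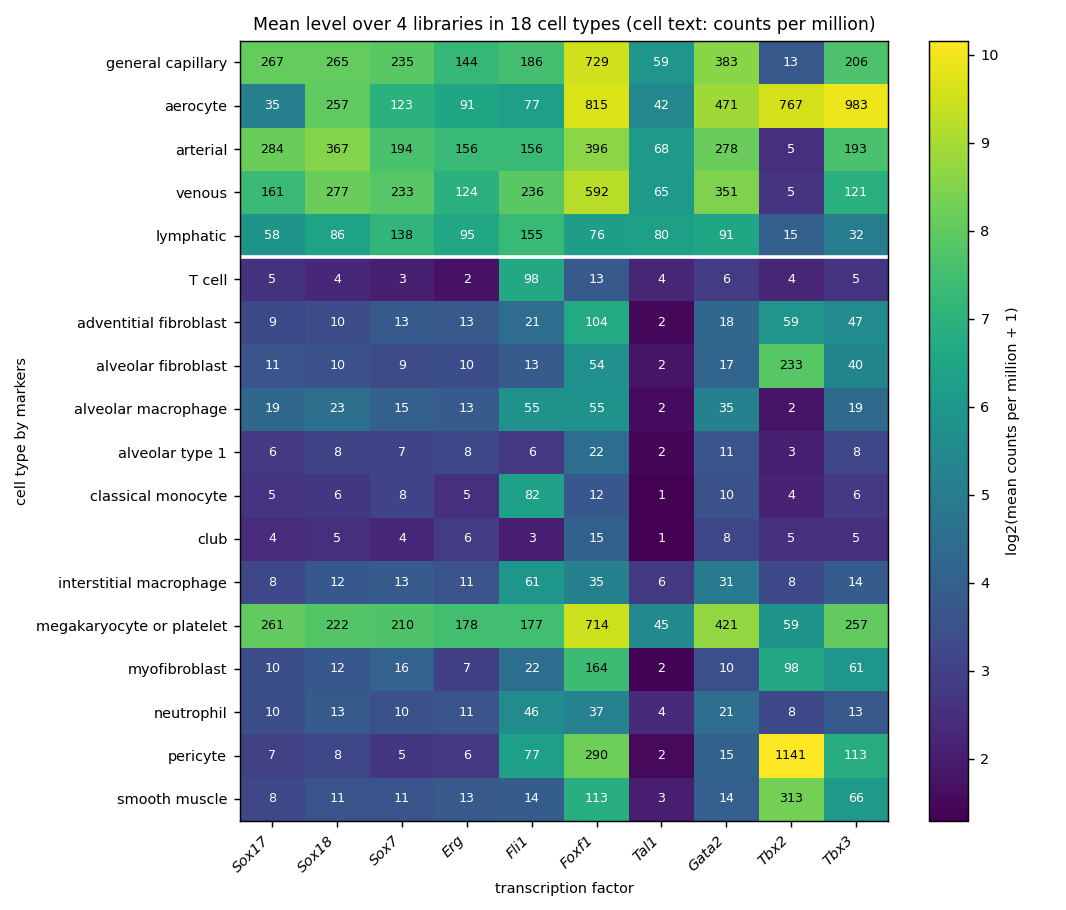
Heat map of the 10 factors (columns) in the 18 cell types with at least 20 cells in each library (rows); colour is log2(mean CPM of the 4 libraries + 1), and the text in each cell is the mean CPM. Tbx2 is highest in pericytes (1141 CPM), Fli1 is seen in T cells (98.2 CPM), and the SoxF genes are at vessel levels outside endothelium in the megakaryocyte or platelet group alone (Sox17 261 CPM).

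General capillary cells fell into 5 clusters, and the factors varied among them. Clusters were formed without the 10 factors among the variable genes, but they remain clusters of the same cells, so these levels too are descriptive. Sox17 was highest in a cluster of 4723 cells led by Mal, Bmp2 and Cdk19, at 345 ± 34.2 CPM (SD, n = 4), and lowest in a cluster of 1521 cells led by Plvap, Ifit1 and Lyve1, at 196 ± 33.2 CPM. Sox7 ran the other way, at 181 ± 22.9 CPM in the Mal cluster and 324 ± 39.7 CPM in the Plvap cluster. Every library of the Mal cluster was below every library of the Plvap cluster for Sox7 and above it for Sox17.

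Sox18 peaked in a cluster of 1889 cells led by Lpl, Sox11 and Mcf2l, at 368 ± 40.9 CPM, against 235 ± 12.5 CPM in the cluster led by Depp1, Egr3 and Hbegf. Foxf1 was 892 ± 33.0 CPM in the Lpl cluster, 877 ± 42.1 CPM in the Mal cluster and 548 ± 98.1 CPM in the Plvap cluster. The libraries contribute unequally: the Plvap cluster held 49, 57, 607 and 808 cells, mostly of Vegfr2Y949F mice, and the Lpl cluster 878, 175, 650 and 186, mostly of set A. Sums over general capillary cells thus hold these clusters in unequal proportions in the 4 libraries.

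**Figure D3:**
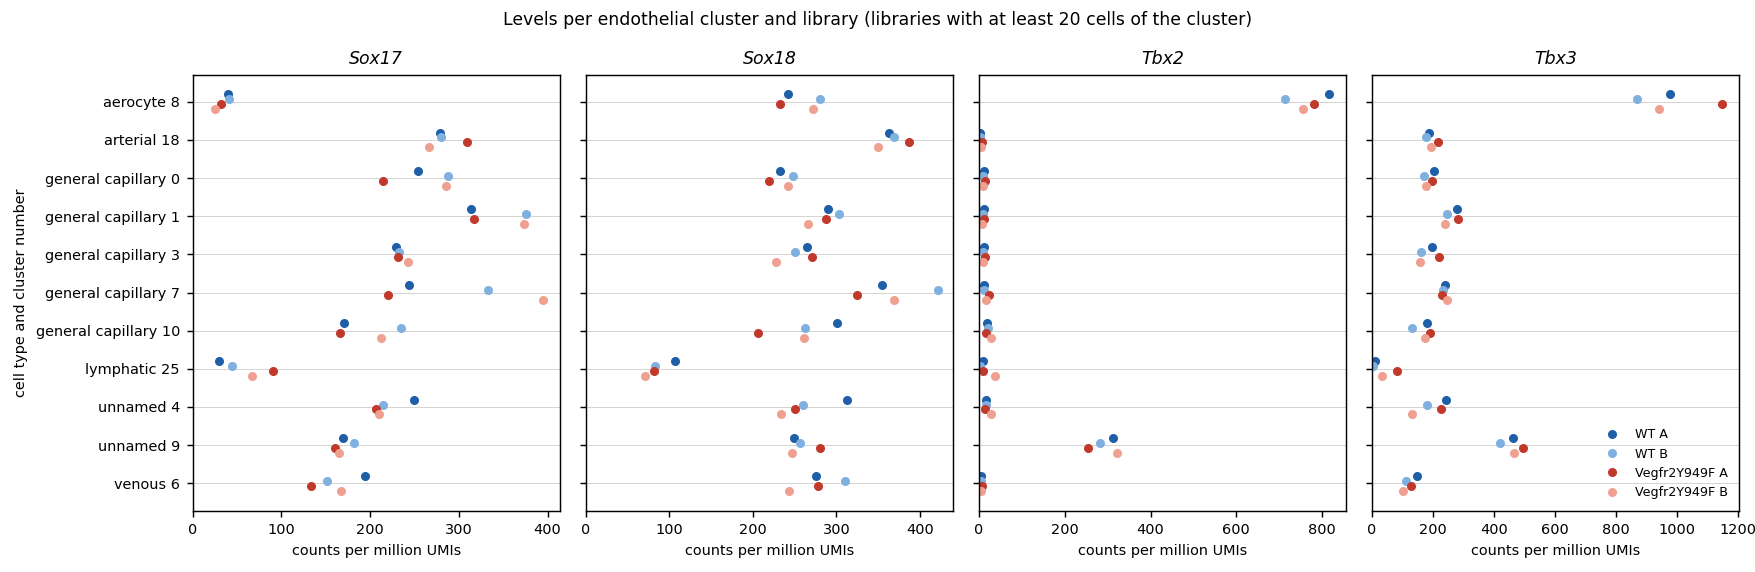
Levels (CPM, linear axes) of Sox17, Sox18, Tbx2 and Tbx3 in each endothelial cluster with a point per library of at least 20 cells. Sox17 ranges from 196 CPM in the Plvap cluster to 345 CPM in the Mal cluster of general capillary cells.

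Over the 20 sums of 5 types in 4 libraries, the factors were compared with 8266 genes by the correlation of log2(CPM + 1), centred within each library. The points share libraries and depth, and the values are descriptions. Foxf1 and Gata2 were each other's most similar gene (Pearson r = 0.993), followed by Slco2a1 (0.992 with Foxf1), a prostaglandin transporter. Lymphatic sums were lowest for both, with means of 76.3 CPM (Foxf1) and 91.1 CPM (Gata2) on 75 and 92 UMIs in all. Arterial cells, the next lowest, had 396 and 278 CPM. The correlations without the lymphatic sums were not computed, so how far these few cells carry them is not known. Sox17 was most like Rpl13a (0.967), a ribosomal protein gene, the arterial connexin gene Gja4 (0.964) and Vegfa (0.963). Sox18 was most like Sox13 (0.974), Id1 (0.972) and Id3 (0.969), the last 2 being inhibitors of helix-loop-helix factors. Sox7 went with Kazn (0.965), F830016B08Rik (0.957) and Snx10 (0.951).

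Erg was most like Edn1 (0.957), which encodes endothelin, Gja4 (0.952) and Eogt (0.951), and Fli1 most like Ltbp1 (0.980), Ephb4 (0.969), a venous receptor, and Fhl1 (0.968). Tal1 had weaker neighbours, Mvb12b (0.936), Thrsp (0.909) and Gm49774 (0.905). Foxf1 and Gata2 also shared Ankrd33b (0.990 and 0.989). Tbx2 went with Dgkz (0.980), Ecscr (0.977) and Septin4 (0.974), and Tbx3 with Pcdh1 (0.980), Meis1 (0.974) and Mcc (0.972). Among the factors, Sox17 and Erg had r = 0.923, Tbx2 and Tbx3 0.632, Erg and Fli1 0.593 and Sox17 and Sox18 0.530. Fli1 ran against Tbx2 (-0.872) and Sox17 against Tbx2 (-0.707).

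Promoter windows from RefSeq (GRCm38.p6) were at hand for only 3 of the 10 factors, as 7 windows of 250 bases upstream of a start. They were searched on both strands for a GATA motif (AGATAA), an ETS motif (CCGGAA), a SOX motif (ACAAT) and an E-box (CAGATG). An Erg window and a Tal1 window held matches, and the other 5 windows held none of these letters. The Erg window is shown because Erg and Sox17 moved together across vessels; it lies at chr16:95459349-95459598 on the minus strand, with the SOX and GATA motif matches in capitals:
Erg: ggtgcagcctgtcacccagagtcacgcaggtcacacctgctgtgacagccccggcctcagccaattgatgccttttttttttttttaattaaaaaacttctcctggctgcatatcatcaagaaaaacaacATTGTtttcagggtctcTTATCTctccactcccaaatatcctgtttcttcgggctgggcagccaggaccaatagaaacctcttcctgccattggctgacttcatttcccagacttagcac

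Among 32851 windows of this length the motifs occur in 27.7% (SOX), 9.99% (GATA), 12.0% (ETS) and 14.4% (E-box), so the matches are a description and say nothing of binding. The counts per gene do not say which start was used.

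Genotype was compared next, on the UMIs of each type summed per library (edgeR quasi-likelihood test, Benjamini-Hochberg adjustment over all genes). The question was whether the receptor change altered the endothelial factors in hypoxia. With 2 libraries against 2, the exact permutation test cannot give a p below 0.333, and p-values measure only the spread between these libraries, each a pool of 2 mice. Over all blood endothelial cells, 0 of 10 factors were called, as were 0% of all 13684 genes tested. No factor had an unadjusted p under 0.05 there (172 genes did), and DESeq2 called 9 genes and 0 factors. Log2 fold changes (Vegfr2Y949F over WT, with 95% interval) were -0.16 (-0.58 to 0.26) for Sox17, -0.14 (-0.52 to 0.24) for Sox18, 0.13 (-0.26 to 0.51) for Sox7, 0.19 (-0.18 to 0.55) for Erg and 0.06 (-0.31 to 0.43) for Fli1. They were 0.09 (-0.29 to 0.48) for Tal1, 0.06 (-0.33 to 0.46) for Tbx2 and, with wider limits, 0.06 (-0.66 to 0.78) for Gata2. Foxf1 had -0.01 (-0.47 to 0.46). Tbx3 had a value of 0 to 2 decimals, with limits of -0.43 and 0.43. Each adjusted p was 0.9998 (edgeR). Within set A, 7 of the 10 factors were higher in Vegfr2Y949F, and within set B 6 were. In both sets 5 were higher and 2 lower.

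Both Vegfr2Y949F libraries were above both WT libraries for Sox7, Erg and Fli1 in all blood endothelial cells, 3 of 10 factors beside 14.7% of all genes, and below for Sox17 and Sox18, 2 of 10 beside 7.11%. Without the Plvap cluster, held mostly by Vegfr2Y949F libraries, the log2 fold change of Sox7 went from 0.13 to -0.0166 and that of Erg from 0.19 to 0.0883. In general capillary cells Sox7, Erg, Fli1 and Tbx2 were above in this sense, 4 of 10 beside 15.9% of all genes, and 0 of 10 below beside 7.77%. In aerocytes Erg and Foxf1 were above, 2 of 10 beside 14.7%, and Sox17 was below, 1 of 10 beside 9.82%. In arterial cells Erg, Fli1 and Tbx3 were above, 3 of 9 beside 16.2%, and 0 of 9 below beside 10.3%. In venous cells Fli1 and Tbx2 were above, 2 of 10 beside 13.9%, and 0 of 10 below beside 9.09%. In lymphatic cells Sox17, Erg, Fli1, Tal1 and Tbx3 were above, 5 of 9 beside 15%, and Sox18 was below, 1 of 9 beside 10.9%. Fli1 was above in this sense in 4 of the 5 vessel types and Erg in 4 of the 5. How many of all genes were so in 4 of the 5 was not counted. These sums come from the same 4 libraries, so the types are not separate evidence, and no separation of this kind was tested.

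By vessel type, 0 factors were called in general capillary cells, where 0% of genes were called, in aerocytes (0.0103%), or in arterial, venous and lymphatic cells (0% each). In the arterial and lymphatic sums 9 factors were tested, since Tbx2 did not pass the filter on low counts. Log2 fold changes lay between -0.16 and 0.45 in general capillary cells, between -0.03 and 0.21 in arterial cells and between -0.23 and 0.53 in venous cells. In 3 cases the unadjusted edgeR p was under 0.05, and neither edgeR nor DESeq2 called any of the 3 after adjustment. The 3 cases were 1 factor each in general capillary cells (beside 1.74% of all genes), aerocytes (1.77%) and lymphatic cells (0.837%). With DESeq2 the unadjusted p was under 0.05 for 0 factors in general capillary cells, 0 in aerocytes and 1 in lymphatic cells. Each case is given with the alternatives that moved it most. Tbx2 in general capillary cells was higher in Vegfr2Y949F (log2 fold change 0.45, interval 0.04 to 0.86, edgeR adjusted p = 0.9999), and it was 0.18 without the Plvap cluster and 0.27 with no doublet removal. The Plvap cluster is mostly of Vegfr2Y949F cells and had Tbx2 at 21.4 CPM.

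Sox17 in aerocytes was lower in Vegfr2Y949F (-0.53, interval -1.03 to -0.03, edgeR adjusted p = 0.9995), with both Vegfr2Y949F libraries below both WT libraries. Adding the unnamed Ednrb cluster took it to -0.17, and stricter filtering of cells to -0.36. Haemoglobin and other erythroid genes were 5868 CPM in aerocytes of Vegfr2Y949F A against 51.1 to 214 CPM in the others, and without haemoglobin-rich cells Sox17 was -0.52.

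Tbx3 in lymphatic cells was higher in Vegfr2Y949F (3.83, interval 1.77 to 5.89, edgeR adjusted p = 0.9997), on 1, 2, 9 and 27 UMIs. These are 9.76, 2.14, 81.8 and 33.8 CPM, with exact Poisson limits of 0.247 to 54.4, 0.259 to 7.73, 37.4 to 155 and 22.3 to 49.2 CPM that cover counting error only. Aerocyte markers in the same lymphatic cells were 644, 164, 482 and 604 CPM, and their part was not tested. The 9 general capillary markers, given above, were highest in Vegfr2Y949F A there. With doublets kept, the value was 0.81. With no filter on low counts, with the set letter as a block or without WT A, the adjusted p was 0.0390, 0.000204 and 0.00339 (edgeR), so the call depended on these choices.

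**Figure D4:**
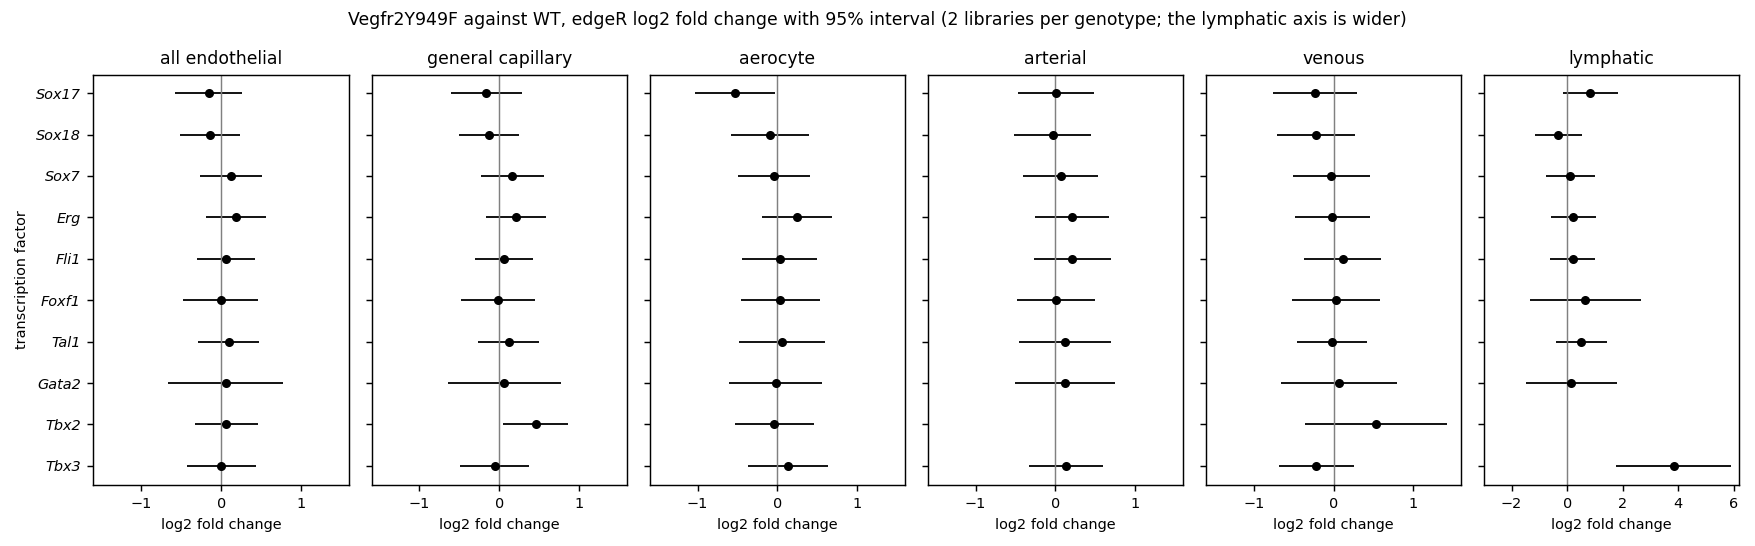
Log2 fold change of each factor, Vegfr2Y949F over WT, with 95% interval (edgeR, 2 libraries against 2), in all blood endothelial cells and in each vessel type; the lymphatic axis is wider. Nearly all intervals cross 0, the exceptions being Tbx2 in general capillary cells, Sox17 in aerocytes and Tbx3 in lymphatic cells.

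Whether genotype acted differently in different vessels was tested as an interaction (edgeR, all genes). Between aerocytes and general capillary cells 0 factors were called, beside 0.149% of all genes. Tbx2 had the lowest p (difference in log2 fold change -0.51, interval -0.79 to -0.22, edgeR adjusted p = 0.272), and Sox17 followed at -0.38 (-0.75 to -0.01). For these 2 factors the unadjusted p was under 0.05, and the share of all genes under it was not counted. Between arterial and venous cells 0 factors were called, beside 0.0196% of genes, and 0 had an unadjusted p under 0.05.

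The set letter also separated libraries. In all blood endothelial cells both set A libraries were above both set B libraries for Foxf1, Tal1, Gata2 and Tbx3, 4 of 10 factors beside 38.2% of all genes, and below for 0 of 10 beside 21.3%. In general capillary cells Sox18 joined them, 5 of 10 beside 37.9%, and Sox17 was below, 1 of 10 beside 20.3%. Aerocytes had 6 of 10 above (Sox7, Fli1, Tal1, Gata2, Tbx2, Tbx3) beside 30.9% and Sox18 below, 1 of 10 beside 19%. Arterial cells had 3 of 9 above (Sox7, Tal1, Gata2) beside 28.2% and 0 below beside 20.1%, and venous cells 3 of 10 above (Foxf1, Gata2, Tbx3) beside 36.3% and 0 below beside 19.1%. Lymphatic cells had 2 of 9 above (Foxf1, Gata2) beside 23.6% and Sox7 below beside 24.7%. Gata2 was separated in each of the 5 vessel types, and in the other factors the separation came and went with the type. In general capillary cells thinned to a fixed depth, 52.5% and 62.9% of set A cells had a Gata2 UMI against 43.9% and 41.2% of set B cells. Over all blood endothelial cells the share of factors above was near that of all genes.

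**Figure D5:**
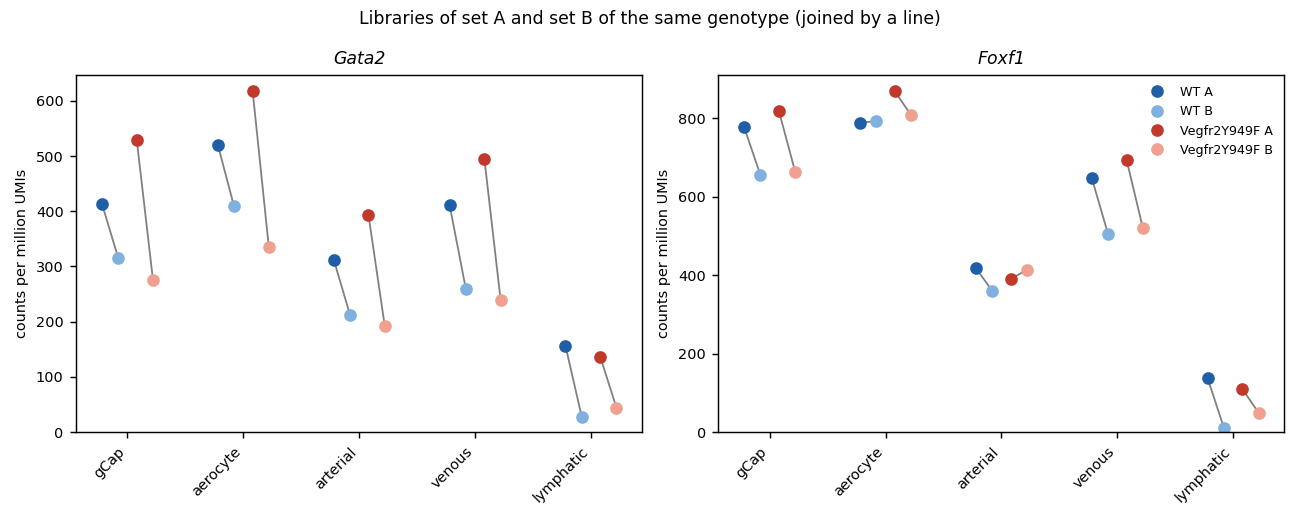
Gata2 and Foxf1 (CPM) by vessel type, a line joining the set A and the set B library of the same genotype. Gata2 is lower in set B in both genotypes in each vessel type, for example 529 against 276 CPM in general capillary cells of Vegfr2Y949F mice.

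Partners and targets from fixed lists were then read in all blood endothelial cells, where edgeR called 0 members of any list. The median log2 fold change of all genes tested was -0.0072, with 48.2% of them higher. Of 41 other endothelial and ETS factors, 39 were tested, 25 higher and 14 lower in Vegfr2Y949F, median 0.06. Its largest values were Foxq1 (1.03) and Foxf2 (1.02), both under 2 CPM in each library, and Lyl1 (-0.48), a Tal1 relative. Lyl1 was the only member of this list with an unadjusted p under 0.05, beside 1.26% of all genes tested. Of 22 arterial and venous identity factors, 19 were tested, 10 higher and 9 lower, with Tbx4 at 0.62, Nr2f1 at -0.50 and Sox5 at 0.46. The median of the 19 tested was 0.01. Levels over the 4 libraries were low, at 0.809 to 1.99 CPM for Tbx4, 3.34 to 5.01 CPM for Nr2f1 and 1.58 to 2.34 CPM for Sox5. Known ERG and FLI1 targets were 10 higher and 11 lower of 21 tested, median -0.02 (Aplnr 0.31, Egfl7 -0.27, Cldn5 -0.23).

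SoxF targets were 11 higher and 7 lower of 18, median 0.03, with Cldn5 as above, Prox1, the lymphatic master factor, at 0.23 and Efnb2, an arterial ligand, at 0.21. FOXF1 targets were split 7 to 7 of 14 (Itgb3 -0.20, Kit 0.16, Acvrl1 -0.12). GATA2 and TAL1 targets were 4 higher and 11 lower of 15, median -0.10, with Angpt2, a Tie2 ligand, at 1.13 (edgeR adjusted p = 0.9998), Lyl1 at -0.48 and Runx1 at 0.34. Of these, 2 members of the list had an unadjusted p under 0.05, Angpt2 and Lyl1, beside 1.26% of all genes tested. Angpt2 was low, at 2.48, 2.78, 5.04 and 6.92 CPM. Runx1 (2.04 to 4.16 CPM), Prox1 (3.49 to 5.04 CPM) and Itgb3 (2.43 to 3.72 CPM) were low too.

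Across vessels, 50 of the other listed factors reached 10 CPM. Lymphatic cells were highest for 17 of them, 8 without overlap with the next type, and arterial cells for 14, 5 without overlap, while general capillary cells led for 7, 0 without overlap. The same counts over all genes were not made, so these are not a trait of the factors. Prox1, Hey1 and Nr2f2 were also among the markers that named the types. Mecom was 104 CPM in arterial and 13.3 CPM in venous cells, and Gata6 192 and 74.3 CPM. Prox1 was 919 CPM and Tbx1 138 CPM in lymphatic cells. Meox1 was 141 CPM in aerocytes and 83.3 CPM in lymphatic cells, with ranges that overlapped.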

How the data were processed

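Lungs were dissociated and counted with the 10x system. The deposited values are raw UMI counts per gene and cell; the file headers name Cell Ranger 6.1.1, and the submitters' processing notes list mm10, fastp, UMI-tools and Seurat 4.1.0 without an order. Depth per library is in the report. Cells with at least 500 genes, 1000 UMIs and under 15% mitochondrial UMIs were kept; the highest 8% of doublet scores were removed, because the caller's own threshold marked none in 2 libraries. Cells were clustered (scanpy 1.11.5, leidenalg 0.10.2; 2000 variable genes, 40 components, 15 neighbours, resolution 1). Clusters were named from markers, since no annotation of the cells by the authors was used here. The 10 factors were left out of both steps.

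Counts were summed per library and type and tested with edgeR 4.0.16 in R 4.3.3 (TMM, filter on low counts, quasi-likelihood, Benjamini-Hochberg), with DESeq2 1.42.0 as an alternative; scripts were tested on simulated data. The 4 libraries differed beyond sampling noise and were counted as 4 samples. The text names the 10 factors, the 3 members of each list with the largest absolute change and any called, and the 3 genes most correlated with each factor, among genes of at least 10 CPM. Members and lists were chosen with earlier results of these data known. B cells, planned as a background, were not used for it because WT A held 13 of them and because, once examined, their cluster carried high levels of the factors in the Vegfr2Y949F libraries (Sox17 at 175 and 93.5 CPM). Alveolar type 1 cells, neutrophils and alveolar macrophages were set beside the vessels instead. The genotype labels could not be checked in the counts, since a point change in the receptor leaves no trace in a gene count.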

Additional observations from a re-analysis of the deposited data

How the results depend on the processing

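Counts of factors called between genotypes changed under 3 of 85 alternatives, all in lymphatic cells, where Tbx3 was called: 1 factor with no filter on low counts, 1 with the replicate block and 1 without WT replicate A (0 to 1 over the libraries left out in turn), at adjusted p = 0.0390, 0.000204 and 0.00339 (edgeR) and log2 fold changes of 3.76, 3.56 and 4.29. Over its alternatives Tbx3 had adjusted p from 0.000204 to 0.9998, and without WT B, without Vegfr2Y949F B or with stricter cells it did not pass the filter. The replicate block used the set letters, whose meaning the labels do not give; same-letter libraries deviated together (r = 0.679 in all blood endothelial cells), and with it 1, 0, 22, 15, 39 and 29 genes were called in all endothelial, general capillary, aerocyte, arterial, venous and lymphatic cells, against 0, 0, 1, 0, 0 and 0. It changed no other factor's call.

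Signs of uncalled all-endothelial log2 fold changes near 0 turned. Tbx3 was 0.000120 with DESeq2, 0.0044 with the replicate block, 0.000666 with no doublet removal, 0.0363 with the high-UMI aerocyte cluster, 0.0795 without the Plvap cluster and 0.000417 without haemoglobin-rich cells. Foxf1 was 0.0011 with the high-UMI cluster and 0.0821 without the Plvap cluster, and Sox7 -0.0166 without it. Leaving out each library gave -0.11 to 0.10 for Foxf1, -0.40 to 0.40 for Gata2, -0.0744 to 0.24 for Tal1, -0.0656 to 0.19 for Tbx2 and -0.14 to 0.15 for Tbx3.

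Of 100 alternatives for the log2 ratio between a fixed pair of blood vessel types per factor, 84 moved it by less than 1 SD. In 100 the direction held, which does not show that the order against the other types held. With the high-UMI cluster counted as aerocytes (chosen after seeing the data, as were leaving out the Plvap cluster and haemoglobin-rich cells), the ratio of arterial to aerocyte fell from 3.06 to 1.07 for Sox17 and from 0.78 to 0.22 for Erg. Under it Sox7 went from 0.94 to 0.47, Fli1 from 1.63 to 0.89, Gata2 from 0.78 to 0.59, Tbx2 from 7.21 to 6.30 and Tbx3 from 3.03 to 2.29. With no doublet removal Sox18 went from 0.52 to 0.27, Foxf1 from 1.04 to 0.61, Tal1 from 0.67 to 0.58 and Gata2 to 0.54. Stricter cells gave 0.86 for Erg and 0.87 for Foxf1, the mean of the cells' own levels 0.44 for Erg, and thinned cells 0.78 for Tal1 and 7.98 for Tbx2. DESeq2 was not run for the interactions. Depth limits Tbx2 in arterial and venous cells and the factors in lymphatic cells.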
